A study of Arabidopsis thaliana with 2 samples.

Results

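The precursor described here is mir408, the single Arabidopsis thaliana precursor of the microRNA miR408, 1 of the 153 precursor names in the deposited tag lists. Its members were all sequence tags given the precursor name mir408 by the authors: 31 of 1755 distinct tags in the library of the mutant labelled fiery and 15 of 677 in the library of wild-type Col-0. They held 420 of 33192 reads in fiery and 125 of 12129 in wild type. It was selected on the counts of its 5′ ends near the base of the stem, which were spread over several nucleotides, so that spread is given as a description without a test.

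SPARE (specific parallel amplification of RNA ends) joins an adaptor to free 5′ ends and reverse transcribes the RNA with a primer placed in each precursor. Every tag therefore begins at a free 5′ end, whether or not a microRNA cut left it. Each library was made from 1 mixture of 2-week-old seedlings with leaves and inflorescences of 5-week-old soil-grown plants, both grown at 23 °C with 16 h of light. The mutant carries fiery and nothing else that the labels name, and the sources used here do not name its ecotype. The assay does not read the mutated gene, so neither genotype has a check. With 1 library per genotype, differences between them have no replicate check, and all intervals are exact 95% intervals. They cover counting error alone: without molecular identifiers, reads copied by PCR are not separate molecules.

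Plant microRNAs are cut out of a hairpin by the nuclease DICER-LIKE1, with one pair of cuts at the base of the stem and one near the loop, in an order that depends on the hairpin. miR408 is a conserved microRNA of land plants that accumulates when copper is scarce. Its targets are messages of copper proteins, the small blue copper protein plantacyanin and several laccases, multicopper oxidases of the cell wall.

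The precursor MIR408 (AT2G47015) occupies chromosome 2, 19319814 to 19320031, on the plus strand of TAIR10.1. It lies opposite the protein-coding gene AT2G47020 (19319685 to 19322507, minus strand), within the 3′ untranslated part of its longest annotated 3′ exon. miR408-5p lies at 19319866 to 19319886 and miR408-3p at 19319933 to 19319953. Cutting next to the loop leaves a 5′ end at 19319933, the first nucleotide of miR408-3p. Cutting at the base leaves a 5′ end at 19319954, the first nucleotide after it. The stretch of the genome from miR408-5p to the common 3′ end of the short tags (chr2:19319866-19320004, plus strand) is shown because all cuts described below fall on it, with the mature RNAs in capitals. In the mature RNA by itself, capitals mark the seed, bases 2 to 8.
Hairpin stretch: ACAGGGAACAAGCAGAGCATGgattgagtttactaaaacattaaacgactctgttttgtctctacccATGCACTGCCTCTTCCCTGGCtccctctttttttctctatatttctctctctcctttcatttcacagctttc
miR408-3p: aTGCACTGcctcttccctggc

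In fiery, the base-side 5′ ends of mir408 began at the annotated cut and ran on over the next 4 nucleotides. There were 173 reads at the annotated nucleotide, 132 at 1 nt, 54 at 2 nt, 7 at 3 nt and 10 at 4 nt beyond it. The counts were thus highest at the annotated nucleotide and lower with each step up to 2 nt, while those at 3 and 4 nt did not differ beyond counting error. On the other side of the annotated cut, the 6 nt at the end of miR408-3p held 1 read. The spread was therefore one-sided and pointed away from the loop. The 5 nucleotides together held 376 reads, 89.5% (86.2 to 92.3) of the mir408 reads of this library. The 5 fiery tags are shown because they hold the spread of base-side ends, with capitals for what each kept of the first 5 nucleotides after miR408-3p. Whether each of these ends was left by a cut of its own was not tested.
Annotated cut, 173 reads: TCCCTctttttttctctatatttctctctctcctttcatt
1 nt beyond, 132 reads: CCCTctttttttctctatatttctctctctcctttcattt
2 nt beyond, 54 reads: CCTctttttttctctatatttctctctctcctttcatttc
3 nt beyond, 7 reads: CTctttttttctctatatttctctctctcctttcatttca
4 nt beyond, 10 reads: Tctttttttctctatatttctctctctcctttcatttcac

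**Figure D1:**
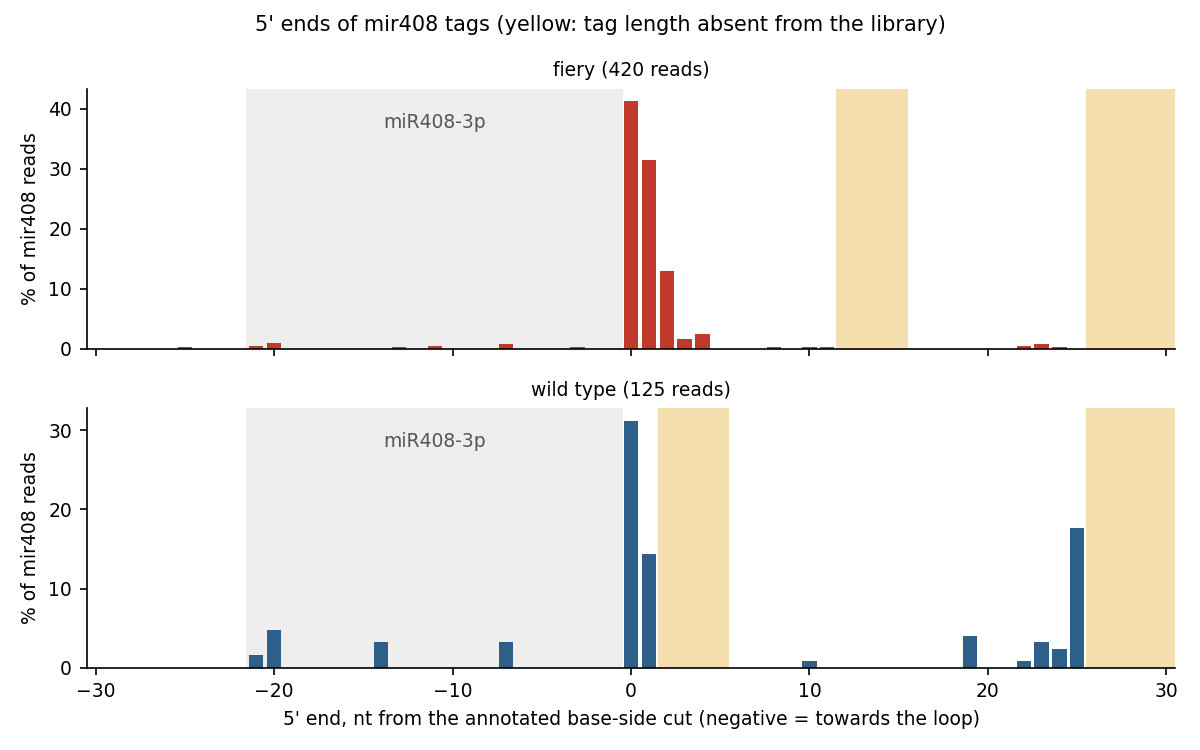
Share of the mir408 reads (vertical axis, %) by the distance of the 5′ end from the annotated base-side cut (horizontal axis, nt), in fiery (upper panel) and wild type (lower panel). Grey marks miR408-3p and yellow marks ends whose tag length was absent from the library. The highest bar stands at 0 nt in both panels, the next at 1 nt in fiery (132 reads) and at 25 nt in wild type (22 reads).

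In wild type the same pair of neighbouring nucleotides held the base-side ends, with 39 reads at the annotated cut and 18 at 1 nt beyond it. No read lay 2 to 5 nt beyond, but this zero carries no information. All short mir408 tags ended at 19320004, so that fragments beginning 2 to 5 nt beyond the cut would be 49 to 46 nt long, and the wild-type library held no tag of 46 to 49 nt from any precursor. Of the 5 nucleotides, the 2 libraries can therefore be set side by side only at the annotated nucleotide and the next one. Of the reads at these 2 nucleotides, the second held 43.3% (37.6 to 49.0) in fiery, and in wild type 31.6% (19.9 to 45.2). These intervals overlap, so a difference in the balance of the 2 ends was not detectable at this depth. In both libraries the annotated nucleotide had more reads, 1.31 times as many in fiery and 2.17 times as many in wild type.

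The spread of mir408 was wide among the precursors of the series. For every precursor that has a single annotated mature RNA on its 3′ arm and at least 30 reads lying no more than 3 nt from the base-side cut, the share of those reads at the main nucleotide was taken. For mir408 it was 47.1% (41.9 to 52.4) in fiery, the second lowest of 35 precursors, whose median was 94.0%. In wild type it was 68.4% (54.8 to 80.1), the second lowest of 17, with a median of 96%. In fiery its neighbours in that order were mir156d with 43.6% (34.4 to 53.1) and mir830 with 50% (31.3 to 68.7), neither of which differed from it beyond the counting intervals. In wild type they were mir319c with 47.6% and mir172d with 76%, whose intervals also overlap that of mir408. Expressed as an effective number of ends (the inverse of the summed squared shares), mir408 had 2.68 in fiery against a median of 1.13, and 1.76 in wild type against 1.08. The wild-type value counts only the 5 of the 7 nucleotides that its tag lengths allow.

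**Figure D2:**
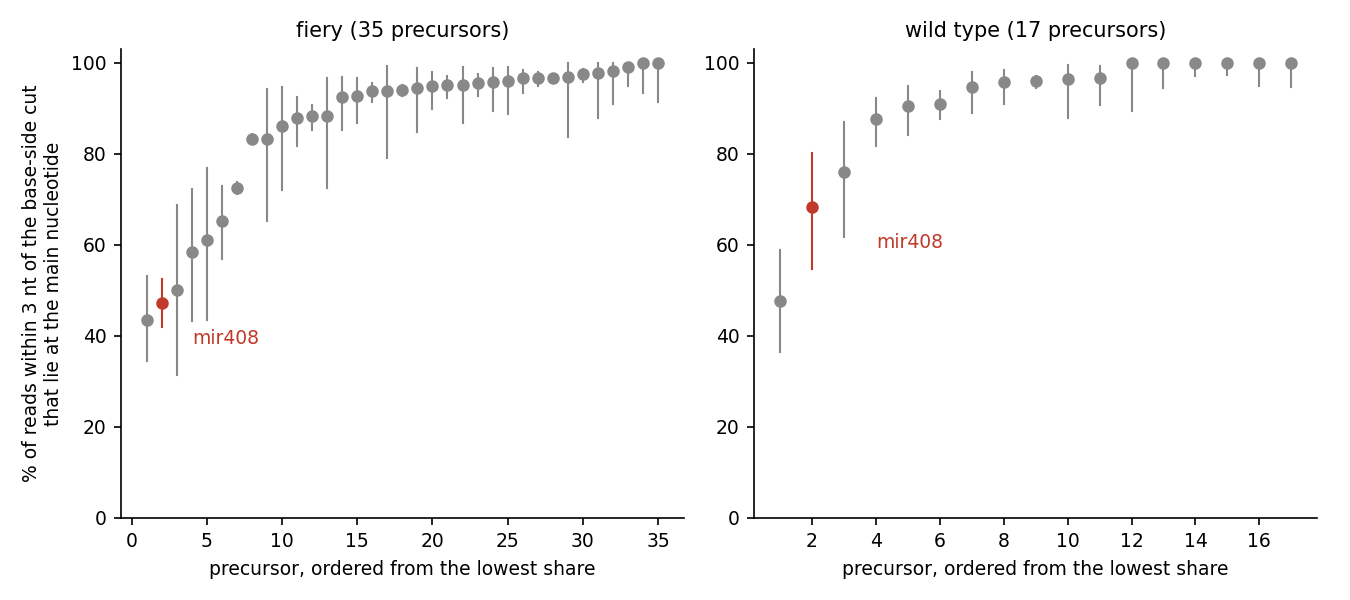
Share of the reads within 3 nt of the base-side cut that lay at the main nucleotide (vertical axis, %), for each precursor in order from the lowest, in fiery (left) and wild type (right). Points are precursors, bars exact 95% intervals, and mir408 is red: it is second from the left in both panels, at 47.1% and 68.4%.

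The 3 fiery profiles most like that of mir408 belonged to mir398c, mir398b and mir172b. Over 10 nt before to 30 nt after the cut, the distance between profiles (the share of reads that would have to move) was 29.5% to mir398c, 38.4% to mir398b and 44.8% to mir172b, with a median of 51.8% over 17 precursors with at least 100 reads near the cut. The precursors mir398c and mir398b belong to 1 family and were the only copper-regulated ones considered here among the 17. The distance did not follow the width of the spread alone: mir156d, which ranked below mir408 by main-nucleotide share, lay at 54.0%. These distances describe 1 library. miR398 targets copper and zinc superoxide dismutases, and miR172 targets AP2-like factors. Of the fiery reads at 0 to 4 nt, mir398c had 3557, 1285, 49, 10 and 6, and mir398b had 3726, 679, 53, 15 and 3, in the same order of nucleotides. The order of the first 2 nucleotides was common. With the nucleotide before the cut also counted, the annotated one was first and the next second in 13 of the 17 precursors. Among the 13, mir172a had only 1 read at the next nucleotide. Both miR398 precursors had few reads farther out: the share at 2 to 4 nt was 1.32% (1.02 to 1.68) for mir398c and 1.59% (1.24 to 2.00) for mir398b, against 18.9% (15.0 to 23.2) for mir408. mir168a, the deeply read precursor of the microRNA that targets ARGONAUTE1, had 2793 fiery reads at the annotated nucleotide, 75 at the next and 0 at 2 to 4 nt. In wild type it had 6 reads at 3 nt and 11 at 4 nt, and its share at 2 to 4 nt was 1.87% (1.09 to 2.98).

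**Figure D3:**
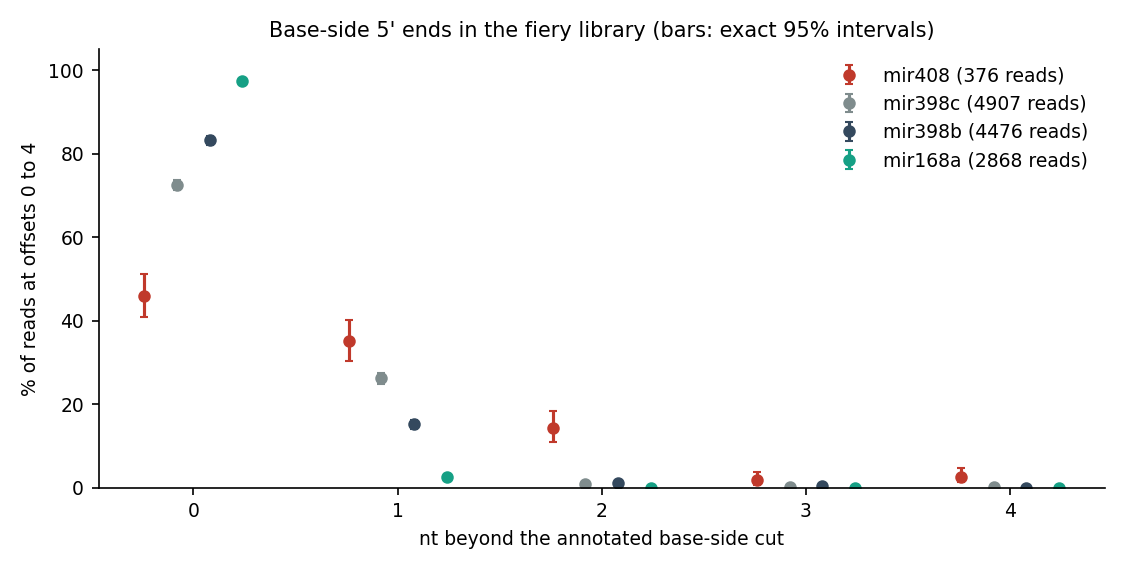
Share of the reads at 0 to 4 nt beyond the base-side cut (vertical axis, %) by nucleotide (horizontal axis) for mir408, mir398c, mir398b and mir168a in fiery, with exact 95% intervals. mir408 is lowest at the annotated nucleotide (46.0%) and highest at 1 to 4 nt, with 14.4% at 2 nt.

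Loop-side ends were few in both libraries, and most of them lay 1 nt inside the annotated mature RNA. In fiery there were 2 reads at the first nucleotide of miR408-3p and 4 at the second. In wild type there were 2 and 6. The second nucleotide thus had more reads than the annotated one in both libraries, on counts too small to set the 2 apart. Loop-side ends made up 1.93% (0.711 to 4.15) of the fiery reads within 1 nt of either cut. The wild-type share was 12.3% (5.47 to 22.8), an interval that does not overlap the fiery one. At the exact positions the shares were 1.14% (0.139 to 4.07) and 4.88% (0.596 to 16.5), and these intervals overlap. A loop-side end marks an RNA that was still joined to its base, while a base-side end is left in either order of cuts. The wild-type tags that begin at the loop-side cut are shown because they carry miR408-3p (capitals) and its base still joined.
First nucleotide, 2 wild-type reads: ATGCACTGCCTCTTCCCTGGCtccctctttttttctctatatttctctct
Second nucleotide, 6 wild-type reads: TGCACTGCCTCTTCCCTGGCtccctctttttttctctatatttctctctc

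The 2 loop-side and 5 base-side ends frame RNAs of 20 to 25 nt. The annotated pair of cuts frames the 21 nt of miR408-3p, and the pair shifted by 1 nt on both sides frames another RNA of 21 nt that loses its first base and gains a T (capital) at its end. Combined with the annotated loop-side end, the base-side ends at 1 and 2 nt would lengthen the RNA to 22 and 23 nt. Mature RNAs were not sequenced in this assay, so which of these existed is not known from these data. The framed RNAs are shown because they are what cuts at these ends would leave.
Annotated cuts: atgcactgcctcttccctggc
Both cuts shifted by 1 nt: tgcactgcctcttccctggcT
Annotated loop-side cut with the base-side end at 1 nt: atgcactgcctcttccctggcT
Annotated loop-side cut with the base-side end at 2 nt: atgcactgcctcttccctggcTC

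The framed RNAs were set against messages known as targets of miR408. The best ungapped match of miR408-3p in the plantacyanin message ARPN (AT2G02850, chr2:827696-827716, minus strand) paired at 19 of 21 bases. The matches in the laccase messages LAC3 (AT2G30210, chr2:12889603-12889623, minus strand), LAC12 (AT5G05390, chr5:1594966-1594986, plus strand) and LAC13 (AT5G07130, chr5:2210756-2210776, plus strand) paired at 17 of 21 each. The remaining bases were 1 wobble and 3 mismatches in LAC12 and in LAC13. They were 4 mismatches in LAC3 and 2 in ARPN. All 4 sites lie in coding sequence. The RNA shifted by 1 nt would pair at 18 of 21 bases in ARPN and at 17 of 21 in each laccase. In the lengthened RNAs, base 22 would face a wobble partner and base 23 a pairing partner in ARPN, and both would face a mismatch in the 3 laccases. These are matches of letters and not measured sites. The sites are given 5′ to 3′, as RNA sense in DNA letters.
ARPN site: ccaagggaagaggcagtgcat
LAC3 site: accagtgaagaggctgtgcag
LAC12 site: gccggtgaagaggctgtgcaa
LAC13 site: gccggtgaagaggctgtgcag

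Ends within miR408-3p, away from both cuts, held 7 reads at 4 positions in fiery and 8 reads at 2 positions in wild type. The 1 position shared by both libraries lay 7 nt before the base-side cut, with 3 reads in fiery and 4 in wild type. No read began within miR408-5p in either library, with exact upper limits of 0.875% of the mir408 reads in fiery and 2.91% in wild type. The 46 nt between the mature RNAs held 1 fiery read and no wild-type read. A single end before miR408-5p had 3 wild-type reads, at 19319843.

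A second group of ends lay farther down, 22 to 25 nt beyond the base-side cut. In wild type it had 1, 4, 3 and 22 reads at 22, 23, 24 and 25 nt, and in fiery 2, 3, 1 and 0. The group made up 24% (16.8 to 32.5) of the mir408 reads in wild type and 1.43% (0.526 to 3.08) in fiery. Per library read, this group was 13.7-fold higher in wild type (5.60 to 40.2). The tag at 25 nt had no fiery read, and its share in wild type was 20.1-fold the floor of 3 counts in fiery, with an exact lower limit of 15.0-fold for the ratio. At 26 nt, this tag has the shortest length listed in either file. Ends beyond it could not be seen in fragments that stop at the common 3′ end of the short tags. Fiery tags were at most 40 nt long and none had 36 to 39 nt, so those longer than 35 nt all had 40 nt. Wild-type tags reached 50 nt, with none of 46 to 49 nt. Settings restricted to tags longer than 35 nt therefore compare different lengths between the libraries. Tags of 35 nt or less held 65.6% of all wild-type reads and 22.4% of all fiery reads, and 28% and 1.43% of the mir408 reads. The part of this difference in tag length in the second group was not tested. Another 5 wild-type reads, with none in fiery, lay 19 nt beyond the cut.
25 nt beyond, 22 wild-type reads: ctctctcctttcatttcacagctttc
23 nt beyond, 4 wild-type and 3 fiery reads: ctctctctcctttcatttcacagctttc

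**Figure D4:**
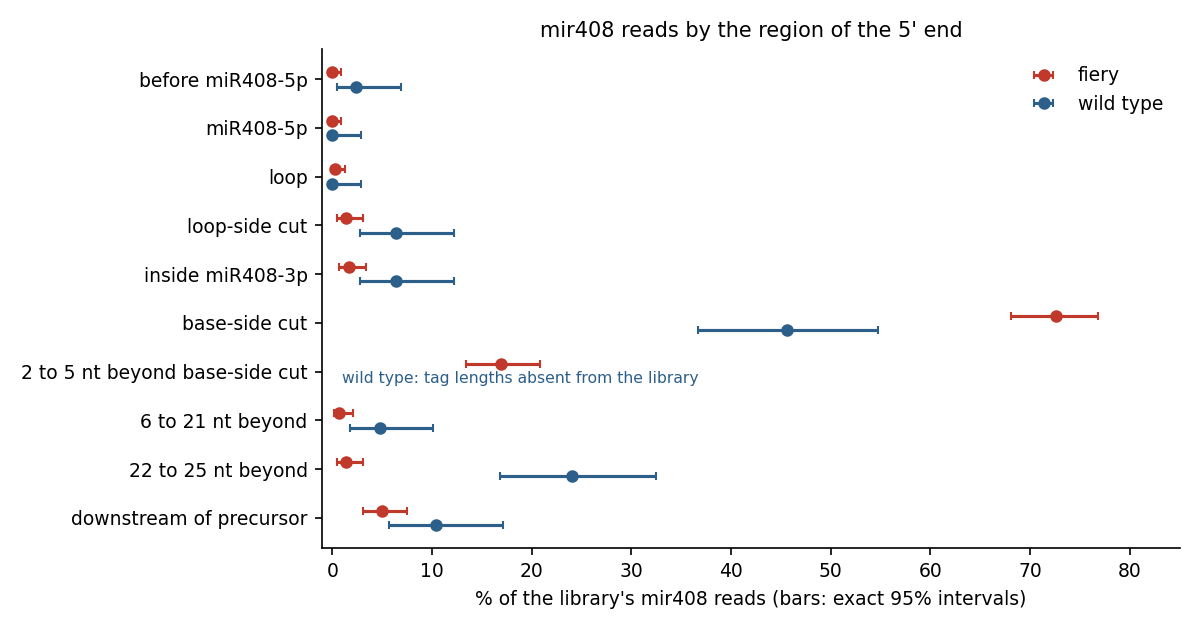
Share of the mir408 reads (horizontal axis, %) by the region in which the 5′ end lay, in fiery (red) and wild type (blue), with exact 95% intervals. The base-side cut (within 1 nt) holds 72.6% in fiery and 45.6% in wild type, and the ends 22 to 25 nt beyond it hold 1.43% and 24%. Ends 2 to 5 nt beyond are not plotted for wild type because their tag lengths were absent.

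Counted within 1 nt of the annotated cut, base-side ends made up 72.6% (68.1 to 76.8) of the mir408 reads in fiery and 45.6% (36.7 to 54.8) in wild type. Over ends inside the precursor whose tag lengths occur in both libraries, the shares were 93.0% (89.7 to 95.5) of 328 reads and 50.9% (41.3 to 60.5) of 112. With only tags longer than 35 nt, which leave out the second group, they were 73.7% (69.2 to 77.9) and 63.3% (52.5 to 73.2). That fiery share counts the 71 reads at 2 to 5 nt that wild type could not show; without them it was 88.9% (85.1 to 92.0), an interval above that of wild type. The whole profiles of ends differed by 50.6% of the reads between the libraries, and by 44.2% over the ends inside the precursor whose tag lengths occur in both. The whole profiles shared 9 positions, which were 29.0% of the 31 fiery positions and 60% of the 15 wild-type positions. These took 76.4% of the reads in fiery and 62.4% in wild type. The fiery positions include those at 2 to 5 nt that wild type could not show. The libraries also differ in depth, and shared positions were not counted for other precursors, so this count does not describe mir408 alone.

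The nucleotides at which the spread base-side ends began had no partner in the predicted fold. In the structure of lowest energy that RNAfold gave for the annotated precursor (-62.7 kcal/mol), a run of 26 unpaired nucleotides on the 3′ arm stretched from 2 nt before to 23 nt beyond the base-side cut, with no unpaired nucleotide opposite. All 5 nucleotides of the spread lay in it, with a pairing probability of 1.66% to 5.03%, against a mean of 72.9% over miR408-3p. The next paired nucleotides began 24 nt beyond the cut, and 2 of the 4 ends of the second group, at 24 and 25 nt, were among them. The same run was found with 20 or 50 nt of genome added on each side. When the stretch from 24 to 50 nt beyond the cut was kept unpaired, 4 of the 5 nucleotides were paired, in a fold 7.3 kcal/mol less stable. The fold is a prediction and was not measured in these plants.

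**Figure D5:**
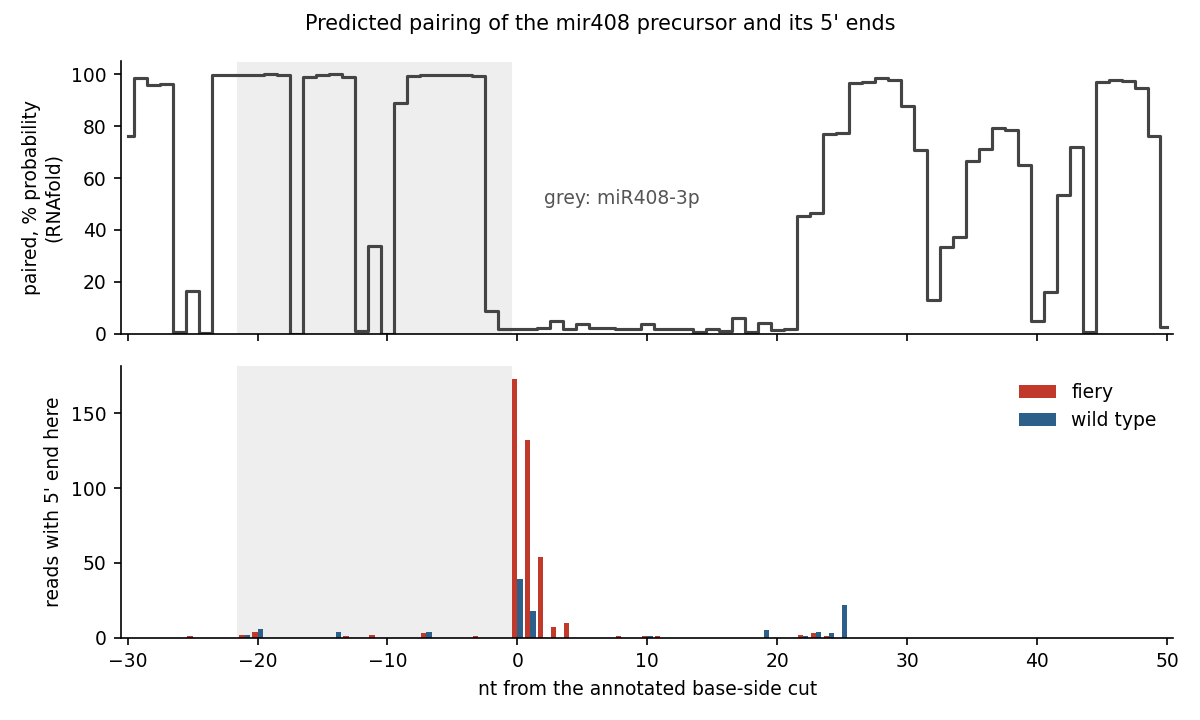
Upper panel: probability that each nucleotide is paired in the RNAfold ensemble (vertical axis, %) by distance from the base-side cut (horizontal axis, nt). Lower panel: reads with a 5′ end at each nucleotide in fiery (red) and wild type (blue). The fiery reads at 0 to 4 nt lie where pairing is 1.66% to 5.03%, as do the wild-type reads at 0 nt (39) and 1 nt (18). The 22 wild-type reads at 25 nt lie where it is 77.5%.

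The sequence after the cut was rich in pyrimidines. Of the 20 nt from the base-side cut onwards, 18 were C or T (90%), against a median of 60% over the 114 precursors that have a single annotated mature RNA there. Only 5 of those 114, mir408 among them, had as high a share. The others were mir169g, mir157c, mir159a and mir169b, named after their values were seen.

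Tags beyond the annotated precursor carried the name mir408 as well. A primer placed in the precursor, as the assay is described, would not read ends downstream of it. What gave these reads was not tested, and they were kept in the mir408 read totals. Without them, ends within 1 nt of the base-side cut made up 76.4% of 399 fiery reads. The wild-type share was then 50.9% of 112 reads. In fiery, 21 reads at 13 positions lay 301 to 578 nt past its end, with at most 3 reads at a position. In wild type, 13 reads lay at 2 positions, 10 at 19320415 and 3 at 19320463. All were on the strand of MIR408, opposite coding exons of AT2G47020 for 21 of 21 fiery and 10 of 13 wild-type reads, counting an exon of any annotated transcript. No position downstream was shared by the 2 libraries, but wild type had only 2. Shared positions were not counted for other precursors, so this does not describe mir408 alone. The downstream reads made up 5% (3.12 to 7.54) of the mir408 reads in fiery and 10.4% (5.66 to 17.1) in wild type, and all were placed uniquely in the genome.

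As a whole, mir408 made up 1.27% (1.15 to 1.39) of the fiery library and 1.03% (0.859 to 1.23) of the wild-type library, at place 15 and place 17 of the precursors by reads. The ratio of these shares was 1.23 (1.00 to 1.51), and its direction rested on what it was set against. It was 0.745 (0.592 to 0.947) with only tags longer than 35 nt and 0.888 (0.726 to 1.09) without mir172a, the precursor with the most wild-type reads. It was 1.80 (1.47 to 2.21) without mir398b and mir398c, and 2.36 (1.93 to 2.90) relative to 0.520, the median ratio over the 31 precursors for which both libraries held 30 reads or more. The interval lay above 1 for 48.9% and below 1 for 38.3% of the 47 precursors with at least 100 reads. Of these precursors 40.4% were over 2-fold higher and 38.3% over 2-fold lower in fiery. The base-side cut itself (0 and 1 nt) had a ratio of 1.96 (1.47 to 2.64), the loop-side cut 0.274 (0.0784 to 0.901) and the second group 0.0731 (0.0249 to 0.178). Against only the library reads in tags longer than 35 nt, the base-side ratio was 0.867 (0.652 to 1.17) and the loop-side ratio 0.121 (0.0347 to 0.399), so the direction of the base-side ratio turned while the loop-side ratio stayed below 1. Relative to the median ratio, the ratios of the 3 groups were 3.76 (2.82 to 5.08), 0.527 (0.151 to 1.73) and 0.140 (0.0478 to 0.343).

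Of the 7 copper-regulated precursors considered (mir397a, mir397b, mir398a, mir398b, mir398c, mir408 and mir857), 5 were listed in the files. The miR397 and miR857 families also target laccases. mir857a had 3 fiery and 2 wild-type reads, none of them at its base-side cut. mir397a had 11 and 3 reads and has no single annotated mature RNA on the 3′ arm, so no cut was counted for it. mir398b had 4732 and 125 reads and mir398c had 6089 and 45, so that mir408 and mir398b had the same number of reads in wild type but not in fiery (420 against 4732). Read counts also depend on each precursor's primer, so they compare a precursor between libraries better than with another precursor.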

How the data were processed

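The authors deposited, for each library, a list of precursor names, sequence tags and abundances, which are whole-number read counts without normalisation as far as the values show. Bowtie and TAIR10 are named per the submitters' processing notes, without version or settings. Per the labels' protocols, RNA depleted of ribosomal RNA was ligated to an adaptor, reverse transcribed with precursor-specific primers and amplified in 18 PCR cycles.

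Every tag was matched exactly to TAIR10.1 (RefSeq annotation, 1-based coordinates) on both strands, with a 26 nt seed. The 46 mir408 tags each had 1 match, on the sense strand. Ends were counted by their distance from the annotated miR408-3p. Shares carry Clopper-Pearson intervals and ratios of shares conditional binomial intervals. The 3 mir405 copies were counted together. mir408 was given by its name, its 3 most alike precursors by the smallest profile distance, and its neighbours by rank. mir408, the copper list and the rules were chosen with earlier results of these data known. The groups were the genotypes in the labels, compared without a test because each has 1 library. Alternatives changed windows, tag lengths, minimum reads, reference sets and folding context. Functions were tested on simulated data. Folds came from RNAfold 2.7.2. Intervals were computed with scipy 1.17.1 under Python 3.11.15, tables with pandas 2.3.3 and numpy 2.4.6, and plots with matplotlib 3.10.9.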

Additional observations from a re-analysis of the deposited data

How the results depend on the processing

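No paired analysis was possible because each genotype has 1 library. The ratio of mir408 shares (1.23) was 1.80 without mir398b and mir398c, 2.36 relative to the median ratio of 31 precursors (0.520, or -0.94 on the log2 scale), 1.08 without mir405 or with single-match tags, 0.888 without mir172a, 0.745 with tags longer than 35 nt and 0.797 with distinct tags counted once. The base-side share was 41.2% in fiery and 31.2% in wild type at the exact position, and 85.5% and 87.4% in fiery within 2 and 3 nt. With long tags it was 63.3% in wild type, also without ends 2 to 5 nt beyond the cut, where it was 88.9% in fiery. It was 93.0% in fiery over ends whose tag length both libraries hold, and 6.45% and 13.3% with distinct tags counted once. The main nucleotide held 48.2% and 47.1% of the fiery base-side reads within 2 and 3 nt, and 50% in either library with distinct tags counted once, where 2 tags remain. An exact position has 1 nucleotide and gives no such share. Loop-side shares were 50% in both libraries with distinct tags counted once and 4.88% in wild type at the exact position. Reads beyond the base-side window were 55.5% and 53.6% from the exact position, 11.2% and 9.52% in fiery from 2 and 3 nt, 15.6% in wild type with long tags, and 71.0% and 53.3% with distinct tags counted once. The difference between profiles was 35.8% with long tags, 44.2% over ends whose tag length both libraries hold and 71.0% with distinct tags. With the distal stretch kept unpaired, 4 nucleotides of the spread were paired in place of 0. Counting tags once, or widening the window, changes the values by construction; for the other settings the cause was not tested. The place of mir408 by concentration was 2 or 3 in fiery and 2 in wild type under every minimum and window that could be run; 57 wild-type reads near the cut did not allow the minimum of 100, nor its absent tag lengths the restriction to fully seen windows. Of 70 alternatives, 38 stayed within the counting interval, or within 1.5 times for places. The wild-type library, with 125 mir408 reads, sets the precision.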
